A study of Mus musculus with 9 samples.

Results

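The CCN genes encode a small family of secreted matricellular proteins, and 5 of them, Ccn1, Ccn2, Ccn3, Ccn4 and Ccn5, are described here in K7M2, a cell line from mouse osteosarcoma, as measured by RNA sequencing. They were taken by name from a table of 55401 genes. The members were chosen by measured values, since Ccn1 and Ccn2 had moved in opposite directions in cells given (A/R) platelets, and so every value of the family that involves those libraries is given as a description without a test. The study had 9 libraries in 3 groups of 3. These were K7M2 cells treated with mouse (A/R) platelets, K7M2 cells treated with mouse platelets, and untreated K7M2 cells. All 9 libraries are labelled WT, and the labels do not expand A/R. The titles give 24 h for every library, but the treatment labels state 27, 28 and 29 h of (A/R) platelets and 24, 25 and 26 h of platelets. If those hours are right, the longer exposure and the (A/R) platelets cannot be told apart. The labels do not say that the libraries of a group came from separate cultures, so p-values reflect the spread among libraries only, and that spread may be technical.

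CCN proteins do not build the matrix. They sit in it and on the cell surface, bind integrins, heparan sulphate proteoglycans, LRP receptors and growth factors, and modulate adhesion, migration and wound repair. Ccn1 (also Cyr61) and Ccn2 (also Ctgf) are widely used as readouts of the transcriptional coactivators YAP and TAZ acting with TEAD factors, and both also respond to serum response factor and its MRTF cofactors and to TGF-beta. Ccn3 (also Nov) is often described as opposing Ccn2, Ccn4 (also Wisp1) is a WNT-responsive gene of bone-forming cells, and Ccn5 (also Wisp2) is the member that lacks the C-terminal cystine knot domain.

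In GRCm38, Ccn1 is a minus-strand gene of chromosome 3, from 145646976 to 145649981. The other members are plus-strand genes. Ccn2 is on chromosome 10 from 24595442 to 24598683 and Ccn5 on chromosome 2 from 163820861 to 163833146, while Ccn3 and Ccn4 share chromosome 15, from 54745702 to 54754039 and from 66891320 to 66923201. In the GENCODE annotation each of the 5 genes has 5 exons in its longest coding transcript. The coding sequence is 1137 bases in Ccn1, 1044 in Ccn2, 1062 in Ccn3 and 1101 in Ccn4, and 753 bases in Ccn5, the shortest. Ccn2 overlaps the antisense transcript Gm15270, which had 15, 30 and 18 counts in the (A/R) platelet libraries, 69, 6 and 29 counts in the platelet libraries and 63, 30 and 7 counts in the untreated libraries. The sources used here do not state whether counting used strand, so reads of that pair cannot be told apart, but Ccn2 itself had at least 2986 counts in every library. Of the 31-base words in their transcripts, Ccn1, Ccn4 and Ccn5 shared 0 with other genes, Ccn2 shared 4 of 2867 and Ccn3 shared 39 of 2819.

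Promoter sequence was at hand for 1 of the 5 members, Ccn1, and it is printed beside that of Ankrd1, a cardiac ankyrin repeat protein and YAP target that rose with platelets as Ccn1 did, so that the TEAD motif can be compared between them. Both are RefSeq sequences of GRCm38.p6, 5′ to 3′ on the minus strand, from 250 bases before the annotated start to 50 bases after it. Capitals mark GGAATG, the core bound by TEAD factors, read on either strand, TGACG, the short core of the cyclic AMP response element, also on either strand, and TATAAA, the core of a TATA box. The Ccn1 window is chr3:145649936-145650235 and the Ankrd1 window is chr19:36119795-36120094.
Ccn1: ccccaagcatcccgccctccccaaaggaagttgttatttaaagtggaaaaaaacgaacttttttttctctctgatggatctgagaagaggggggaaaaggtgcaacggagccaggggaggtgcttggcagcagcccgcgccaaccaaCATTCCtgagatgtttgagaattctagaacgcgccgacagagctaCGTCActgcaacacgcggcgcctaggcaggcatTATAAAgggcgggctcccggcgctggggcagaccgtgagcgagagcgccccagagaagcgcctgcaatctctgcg
Ankrd1: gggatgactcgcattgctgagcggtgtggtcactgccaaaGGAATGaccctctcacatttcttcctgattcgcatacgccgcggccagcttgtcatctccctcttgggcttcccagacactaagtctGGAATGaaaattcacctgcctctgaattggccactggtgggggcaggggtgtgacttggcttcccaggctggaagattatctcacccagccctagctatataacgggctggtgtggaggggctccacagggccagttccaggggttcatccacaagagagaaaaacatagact
The Ccn1 window held 1 GGAATG on the reverse strand, 103 bases before the start, 1 TGACG on the reverse strand at 58 bases and 1 TATAAA at 25 bases. The Ankrd1 window held GGAATG at 210 and 123 bases before the start. Of 32544 mouse promoters of the same length, 14.6% held GGAATG, 20.9% held TGACG and 13.6% held TATAAA, each searched on both strands. Among the 10314 promoters of tested genes the shares were 11.6% for the TEAD core, 32.9% for the cyclic AMP response core and 6.62% for the TATA core. GGAAGT, an ETS factor core, occurred once in the Ccn1 window and in 23.7% of all promoters. The AP-1 site TGANTCA (7.79% of promoters), the full response element TGACGTCA, which contains TGACG (1.8%), the CArG box of serum response factor (1.64%), the SMAD element GTCTAGAC (0.215%) and TGATGNAA, bound by ATF4 composites (3.91%), were not in the letters of the Ccn1 window. Of the elements not found, a shorter core was searched for the cyclic AMP response element only. A match describes these letters and does not show that a factor was bound.

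The libraries held 37465049 to 61366030 estimated counts, at about 4 counts per fragment, and mitochondrial genes took 2.72% to 3.49% of them. The tests covered the 11826 genes with an FPKM (fragments scaled to transcript length and library size) of at least 1 in at least 3 libraries. With edgeR's quasi-likelihood test at a Benjamini-Hochberg adjusted p under 0.05, 4587 genes were called with (A/R) platelets against untreated cells, 4052 with (A/R) platelets against platelets, and 31 with platelets against untreated cells. Higher and lower calls were 19.3% and 19.5% of tested genes in the comparison of (A/R) platelets with untreated cells, 17.1% each in that with platelets, and 0.211% and 0.0507% for platelets against untreated cells. Platelet transcripts were scarce in all groups. The 20 platelet transcripts summed to 2.49 to 3.41 CPM (counts scaled to the library total) in (A/R) platelet libraries, 4.10 to 5.90 CPM in platelet libraries and 4.32 to 6.55 CPM in untreated libraries, with 6 of the 20, Tubb1 among them, at 0 in all 9. Ppbp had the highest counts of the 20, at 81 to 150 in (A/R) platelet, 143 to 174 in platelet and 122 to 232 in untreated libraries. Gp5, named here after its values were seen, had 3 to 16 counts in (A/R) platelet, 4 to 8 in platelet and 0 in untreated libraries. No other gene of the 20 had that pattern. Leukocyte and erythroid markers, 15 genes with 5 at 0 throughout, summed to 2.17 to 4.16 CPM in (A/R) platelet libraries, 3.58 to 9.28 CPM in platelet libraries and 2.88 to 5.16 CPM in untreated libraries. Of 14 osteoblast lineage markers, Alpl, Ibsp and Dlx5 were at 0 in all 9 libraries and Sp7 had at most 8 counts. The sum of the 14, mostly Spp1, Sparc and type I collagen, was 2298.2 to 2402.84 CPM in (A/R) platelet libraries, 2647.84 to 2788.63 CPM in platelet libraries and 2899.21 to 2941.68 CPM in untreated libraries. Of the 7 that entered the tests, 0 rose and 4 fell in (A/R) platelet against untreated cells (median log2 fold change -0.28). In platelet against untreated cells 0 of the 7 were called by edgeR, DESeq2 or limma. Of the 7, 2 had an unadjusted p under 0.05 in edgeR, beside 12.9% of all tested genes. The part of these marker genes in the CCN values was not tested. In such bulk RNA, fewer cells of a type and less RNA per cell cannot be told apart.

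Of the 5 members, 3 passed the filter. Ccn1 was the highest member in every library, followed by Ccn2, Ccn4 and Ccn5, in FPKM, which is scaled to transcript length. Measured as the mean FPKM of the group, Ccn1 stood above 96.3% of tested genes in (A/R) platelet cells, 95.7% in platelet cells and 93.9% in untreated cells. Ccn2 stood above 78.4% of tested genes in (A/R) platelet cells, 90.1% in platelet cells and 84.2% in untreated cells. Ccn4 stood in the lower part of the range, above 36.3% in (A/R) platelet cells, 31.4% in platelet cells and 39.4% in untreated cells.

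**Figure D1:**
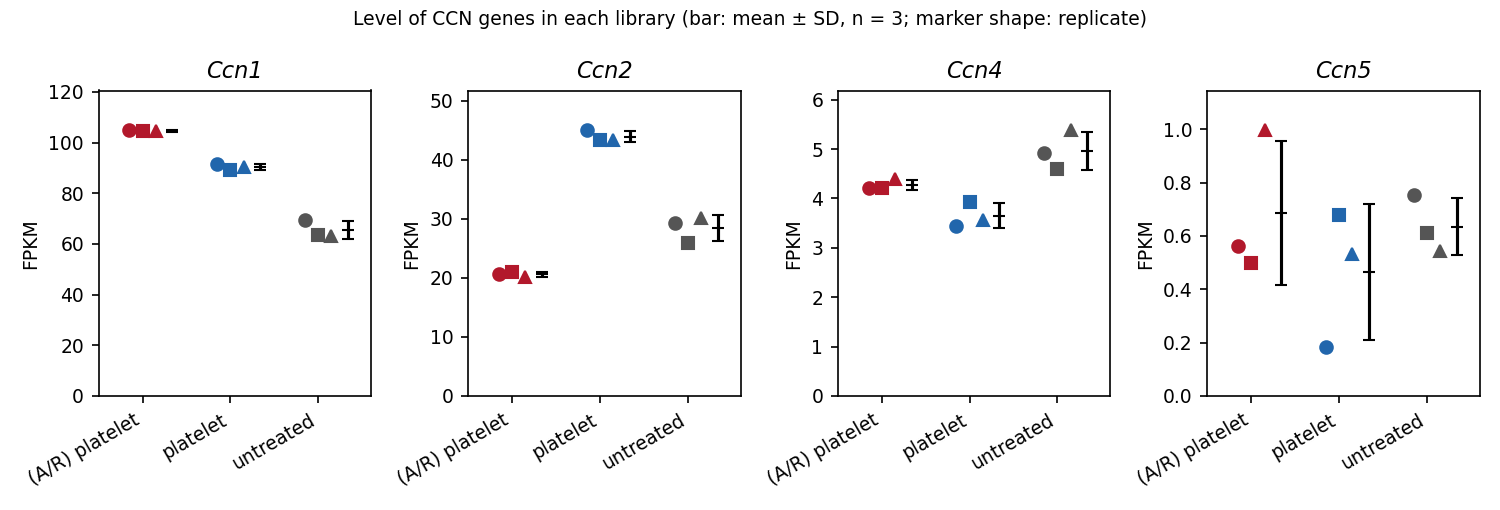
FPKM of Ccn1, Ccn2, Ccn4 and Ccn5 in each of the 9 libraries, by group, with a marker per library and a black bar for the mean ± SD of 3 libraries. Ccn1 is highest in (A/R) platelet cells, Ccn2 is highest in platelet cells and lowest in (A/R) platelet cells, and Ccn4 is highest in untreated cells, while the groups overlap for Ccn5.

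Ccn1, an integrin ligand and early growth-response gene, read 104.8, 104.4 and 104.5 FPKM in the (A/R) platelet libraries, 91.7, 89.2 and 90.5 FPKM in the platelet libraries, and 69.6, 63.5 and 63.1 FPKM in the untreated libraries. The 3 groups were fully separate, with (A/R) platelet cells highest and untreated cells lowest. Ccn1 averaged 104.6 ± 0.236 FPKM in (A/R) platelet cells, 90.5 ± 1.23 FPKM in platelet cells and 65.4 ± 3.66 FPKM in untreated cells (SD, n = 3 each), so the spread was widest in untreated cells.

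Ccn2, the connective tissue growth factor, took another order. It read 20.7, 20.9 and 20.1 FPKM in the (A/R) platelet libraries, 45.0, 43.4 and 43.3 FPKM in the platelet libraries, and 29.3, 26.0 and 30.05 FPKM in the untreated libraries. Here the platelet libraries were highest, the untreated libraries lay between, and the (A/R) platelet libraries were lowest, again without overlap. Ccn2 averaged 20.6 ± 0.396 FPKM in (A/R) platelet cells, 43.9 ± 0.922 FPKM in platelet cells and 28.4 ± 2.17 FPKM in untreated cells (SD, n = 3 each).

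Ccn4 was far lower, with 4.22, 4.22 and 4.39 FPKM in the (A/R) platelet libraries, 3.45, 3.93 and 3.56 FPKM in the platelet libraries, and 4.91, 4.61 and 5.38 FPKM in the untreated libraries. Untreated cells were highest and platelet cells lowest, and the groups did not overlap, although the gap between the lowest untreated library and the highest (A/R) platelet library was small beside the range within untreated cells. Ccn4 averaged 4.28 ± 0.10 FPKM in (A/R) platelet cells, 3.65 ± 0.253 FPKM in platelet cells and 4.97 ± 0.390 FPKM in untreated cells (SD, n = 3 each).

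Ccn5 was near the limit of what these libraries could measure. It had 0.560, 0.499 and 0.996 FPKM in (A/R) platelet cells, 0.182, 0.679 and 0.532 FPKM in platelet cells, and 0.753, 0.610 and 0.542 FPKM in untreated cells, from 21 to 129 counts. The ranges of all 3 groups overlapped, and Ccn5 did not enter the tests; under looser filters its log2 fold change with platelets was -0.42, with an adjusted p of 0.819 to 0.833 in edgeR. Ccn3 had 0 counts in 8 libraries and 8 counts, or 0.0459 FPKM, in platelet replicate 1. A count of 0 allows up to 12 counts, 3 fragments, which is 0.196 to 0.320 CPM depending on the library, and this limit covers counting error only. Ccn6, which completes the mammalian family and was not among the members, had at most 11 counts in any library.

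With platelets, Ccn1 and Ccn2 both rose. Ccn1 was 1.40-fold higher than in untreated cells (log2 fold change 0.48 ± 0.046, SE, 95% interval 0.38 to 0.59), with an adjusted p of 0.00627 in edgeR's quasi-likelihood test. Ccn2 was 1.56-fold higher (0.64 ± 0.059, SE, 95% interval 0.51 to 0.77), also with an adjusted p of 0.00627 in edgeR. Both p-values come from the fit over all 9 libraries, so the (A/R) platelet libraries enter its estimate of spread. With only the 6 libraries of this comparison, the adjusted p in edgeR was 0.0476 for Ccn1 and for Ccn2. All 3 platelet libraries lay above all 3 untreated libraries for both genes. In this comparison 0.262% of tested genes were called, 0.211% as higher. That share rests on 31 genes in edgeR, against 222 with DESeq2 (139 higher and 83 lower) and 18 in edgeR without platelet replicate 3. Groups that did not overlap were seen in 19.3% of tested genes, 8.16% with platelet cells higher and 11.2% with platelet cells lower, and 12.9% had an unadjusted p under 0.05. By p, Ccn2 ranked 3 and Ccn1 ranked 4 of 11826 genes. By size, 1.48% of tested genes had a higher log2 fold change than Ccn2 and 2.6% a higher one than Ccn1. The rise of both genes in this comparison was known when the family was chosen.

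For Ccn4 the log2 fold change with platelets was -0.43 ± 0.082 (SE, 95% interval -0.62 to -0.25). Its adjusted p of 0.0915 in edgeR missed the threshold, while DESeq2 gave the same size with an adjusted p of 0.00209, and over the 18 alternatives the adjusted p ranged from 0.00209 to 0.301. All 3 platelet libraries lay below all 3 untreated libraries, and 3.56% of tested genes had a lower log2 fold change.

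The values with (A/R) platelets chose Ccn1 and Ccn2 and are given as a description. Against untreated cells, the log2 fold change was 0.73 ± 0.046 (SE) for Ccn1, or 1.66-fold, and -0.41 ± 0.059 for Ccn2, or 0.75-fold. Against platelet cells it was 0.25 ± 0.046 for Ccn1, or 1.19-fold, and -1.06 ± 0.060 for Ccn2, which is 2.08-fold lower. Ccn4, which was not chosen for a pattern, was at -0.16 ± 0.082 against untreated cells and 0.27 ± 0.082 against platelet cells. Groups that did not overlap are common in both comparisons: 51.1% of tested genes against untreated cells (21.4% higher and 29.8% lower) and 48.9% against platelet cells (21.3% higher and 27.6% lower). The shares of genes called were 38.8% and 34.3%. All 3 comparisons share libraries, so their values stand side by side and were not correlated.

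In size, 2.06% of tested genes had a lower log2 fold change than Ccn2 between (A/R) platelet and platelet cells. By contrast 22.8% had a higher one than Ccn1 and 21.2% a higher one than Ccn4. Against untreated cells, 4.78% of tested genes lay above Ccn1 and 15.9% below Ccn2.

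**Figure D2:**
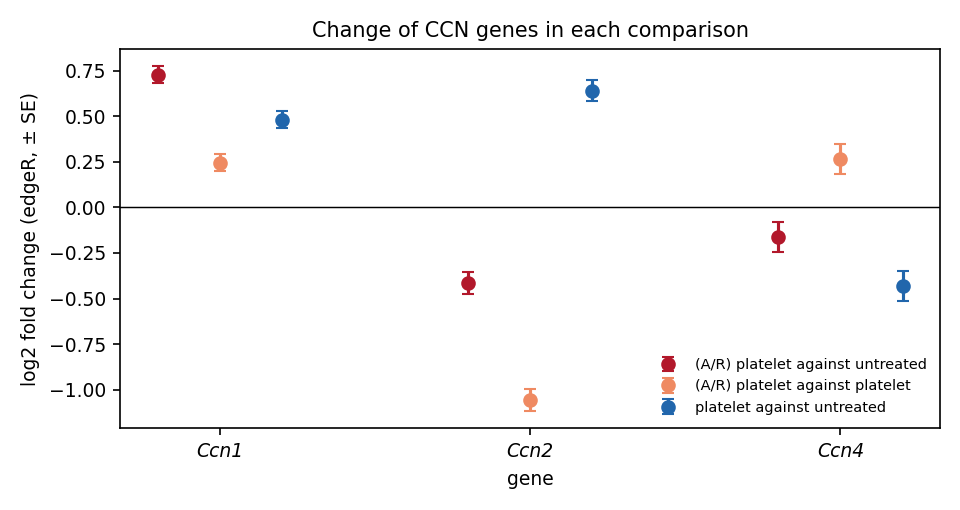
Log2 fold changes of Ccn1, Ccn2 and Ccn4 in the 3 comparisons, with bars for the SE from the fit over all 9 libraries. Ccn1 lies above 0 in every comparison, Ccn2 lies at 0.64 with platelets against untreated cells and at -1.06 with (A/R) platelets against platelets, and Ccn4 lies at -0.43 with platelets against untreated cells.

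Summed over the 5 members, the family came to 130.1 ± 0.168 FPKM in (A/R) platelet cells, 138.5 ± 1.63 FPKM in platelet cells and 99.4 ± 4.95 FPKM in untreated cells (SD, n = 3 each). Ccn1 made up 80.4% of that sum in (A/R) platelet cells, 65.3% in platelet cells and 65.8% in untreated cells. Ccn2 made up 15.8% in (A/R) platelet cells, 31.7% in platelet cells and 28.6% in untreated cells. Ccn4 took 3.29% in (A/R) platelet cells, 2.64% in platelet cells and 5.00% in untreated cells.

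The ratio of Ccn1 to Ccn2 needs no scaling between libraries. In FPKM it was 5.07, 4.99 and 5.19 in the (A/R) platelet libraries, 2.04, 2.06 and 2.09 in the platelet libraries, and 2.38, 2.45 and 2.10 in the untreated libraries. The (A/R) platelet libraries stood apart, and the highest platelet library was just below the lowest untreated library. As the log2 ratio of counts it was 1.84 ± 0.0278 in (A/R) platelet cells (SD, n = 3), a description. Between the other groups it was 0.54 ± 0.0167 in platelet cells and 0.70 ± 0.12 in untreated cells, a difference of -0.16. An exact two-sided permutation test of that difference gave p = 0.1, the smallest p that 3 libraries against 3 allow. As alternatives, the ratio was also tested in FPKM, by same-numbered pairs and without each library, and the difference ranged from -0.23 to -0.12. No test of the ratio used the (A/R) platelet libraries.

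Set against Ccn4, the 2 genes followed different orders. Ccn1 to Ccn4 in FPKM was 24.5 ± 0.587 in (A/R) platelet cells, 24.9 ± 2.00 in platelet cells and 13.2 ± 1.31 in untreated cells. Ccn2 to Ccn4 was 4.82 ± 0.201 in (A/R) platelet cells, 12.1 ± 1.01 in platelet cells and 5.73 ± 0.203 in untreated cells (SD, n = 3 each). These are descriptions with no test.

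CCN proteins act through cell-surface receptors, and of 19 such genes, mostly integrin chains, proteoglycans and LRP receptors, 13 were tested. For this list and those below, the shares called over all tested genes are the background. They were 19.3% higher and 19.5% lower with (A/R) platelets against untreated cells, and 17.1% each against platelet cells. With platelets against untreated cells they were 0.211% and 0.0507%, and 12.9% had an unadjusted p under 0.05 in edgeR. In (A/R) platelet against untreated cells 1 rose and 5 fell, with a median log2 fold change of -0.0252 beside 0.00130 over all tested genes. Sdc1, a heparan sulphate proteoglycan of the cell surface, fell by 0.64 on the log2 scale (adjusted p 0.000235 in edgeR), to 8.82 ± 0.380 FPKM in (A/R) platelet cells, against 14.2 ± 0.598 FPKM in untreated cells. Lrp1, an endocytic receptor that binds CCN proteins, fell by 0.63 (adjusted p 0.000617 in edgeR). Itgb1, the beta chain shared by many CCN-binding integrins, was the one receptor that rose, with a log2 fold change of 0.28 (adjusted p 0.00127 in edgeR) and 239 ± 6.79 FPKM in (A/R) platelet cells, against 204 ± 6.09 FPKM in untreated cells. Against platelet cells the list again had 1 higher and 5 lower (median -0.0643 beside 0.00192), among them Notch1, a receptor that binds Ccn3, at -0.66 (adjusted p 0.00282 in edgeR). The single rise became 2 against untreated cells without platelet replicate 3 or (A/R) platelet replicate 1, and 0 against platelet cells without platelet replicate 3 or (A/R) platelet replicate 2. The 5 falls against platelet cells became 3 in each of 4 fits, which left out platelet replicate 2, platelet replicate 3, (A/R) platelet replicate 1 and (A/R) platelet replicate 3.
In platelet against untreated cells, edgeR called 0 of the 13 receptors, as did DESeq2 and limma, and 5 had an unadjusted p under 0.05 in edgeR (median -0.0213 beside -0.00111). The smallest p was that of Sdc4, another proteoglycan, at 0.12 (adjusted p 0.283). The integrin chains Itgb3, Itga2, Itgam and Itgb8 were under the filter. Itgb2, an integrin chain named here after its values were seen, was tested and not called in any comparison. It had 48.6 ± 1.78 FPKM in (A/R) platelet cells, 48.4 ± 1.66 FPKM in platelet cells and 47.5 ± 2.43 FPKM in untreated cells.

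Upstream of the family, 18 of 22 genes of the Hippo pathway and TEAD complex were tested. With (A/R) platelets against untreated cells 3 rose and 7 fell (median -0.0487 beside 0.00130), and the 3 rises became 1 without untreated replicate 1 or 2. Tead4, a DNA-binding partner of YAP and TAZ, rose by 0.85 on the log2 scale (adjusted p 4.94e-05 in edgeR), to 13.5 ± 0.660 FPKM in (A/R) platelet cells, against 7.74 ± 0.325 FPKM in untreated cells. Vgll4, which competes with YAP for TEAD factors, fell by 0.75 (adjusted p 6.21e-05 in edgeR), and Amotl2, an angiomotin that binds YAP and is itself a YAP target, fell by 0.84 (adjusted p 9.59e-06 in edgeR). Against platelet cells 1 rose and 7 fell (median -0.10 beside 0.00192), among them Amot, a further angiomotin, at -1.12 (adjusted p 0.000225 in edgeR).
None passed with platelets against untreated cells: 0 of the 18 were called by edgeR, DESeq2 or limma, and 5 had an unadjusted p under 0.05 in edgeR (median 0.0411 beside -0.00111). Amotl2 had the smallest p, at -0.20 (adjusted p 0.243). Yap1 itself was under the filter, at 0.395 to 0.752 FPKM over the 9 libraries. Wwtr1, which encodes TAZ, was the more abundant coactivator with 30.2 ± 3.22 FPKM in (A/R) platelet cells, 36.6 ± 4.58 FPKM in platelet cells and 34.4 ± 4.26 FPKM in untreated cells. It was not called in any comparison: its adjusted p in edgeR was 0.399 with (A/R) platelets and 0.762 with platelets, both against untreated cells. Tead1, another TEAD factor, was at 0.15 (adjusted p 0.71) and 0.26 (adjusted p 0.723) in those comparisons, and the first of these became -0.090 without (A/R) platelet replicate 3.

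The other targets of YAP and TEAD, 14 tested of 20 without the CCN genes, moved both ways. With (A/R) platelets against untreated cells 3 rose and 8 fell (median -0.22 beside 0.00130). Gadd45a, a growth arrest and stress gene, rose by 3.00 on the log2 scale (adjusted p 1.63e-06 in edgeR), with 35.8 ± 3.88 FPKM in (A/R) platelet cells, against 4.61 ± 0.758 FPKM in untreated cells. Ankrd1 rose by 0.98 (adjusted p 9.23e-07 in edgeR). Its levels followed the order of Ccn1, with 99.3 ± 1.55 FPKM in (A/R) platelet cells, 68.8 ± 2.84 FPKM in platelet cells and 52.0 ± 1.65 FPKM in untreated cells (SD, n = 3 each). F3, the tissue factor that starts coagulation, also rose, by 1.51 (adjusted p 7.43e-05 in edgeR). Of the genes that fell, Amotl2, counted here as well, was at -0.84. Arhgef17 had the lowest log2 fold change of the 14, at -1.27 (adjusted p 2.12e-05 in edgeR). F3 and Arhgef17 were picked out after their values were seen.
Against platelet cells 5 rose and 7 fell (median -0.11 beside 0.00192), and the 7 falls became 3 without platelet replicate 2 or (A/R) platelet replicate 1 and 4 without (A/R) platelet replicate 3. For platelets against untreated cells, Ankrd1 alone of the 14 was called (log2 fold change 0.42, adjusted p 0.00627 in edgeR). The median of the list was -0.14 beside -0.00111 over all tested genes. In edgeR 9 of the 14 had an unadjusted p under 0.05 there. Of these, Ankrd1 and F3 were higher and all the others lower. Ccn1 and Ankrd1 were both called with platelets, while most of the list was not called. The Ankrd1 promoter was picked because that gene rose as Ccn1 did, and no promoter of an uncalled target was printed. Any part of the TEAD motif in these changes was not tested.

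**Figure D3:**
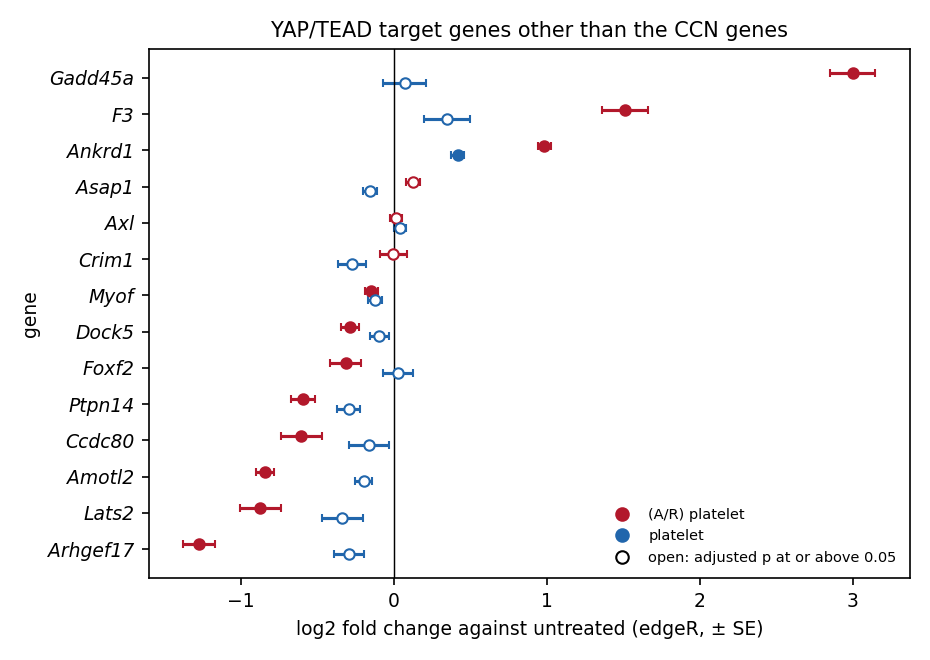
Log2 fold changes (± SE) against untreated cells of the 14 tested YAP and TEAD targets, with (A/R) platelets in red and platelets in blue, open where the adjusted p was at or above 0.05. With (A/R) platelets against untreated cells Gadd45a, F3 and Ankrd1 lie above 0 and Lats2 and Amotl2 below it.

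Serum response factor and its MRTF cofactors drive cytoskeletal genes and can also drive Ccn1 and Ccn2. Of 22 such genes in the table, 15 were tested, and with (A/R) platelets against untreated cells 9 rose and 4 fell (median 0.19 beside 0.00130). The 4 falls became 2 on leaving out (A/R) platelet replicate 2 or untreated replicate 1. Fhl2, a LIM domain cofactor, rose by 1.63 on the log2 scale (adjusted p 1.4e-06 in edgeR), with 40.7 ± 1.68 FPKM in (A/R) platelet cells, 22.3 ± 1.59 FPKM in platelet cells and 13.6 ± 0.906 FPKM in untreated cells. Srf itself rose by 1.08 (adjusted p 5.3e-06 in edgeR), with 35.2 ± 2.40 FPKM in (A/R) platelet cells, against 17.2 ± 0.830 FPKM in untreated cells. The cofactors Mrtfa and Mrtfb, named here after their values were seen, fell by 0.44 (adjusted p 0.0176 in edgeR) and by 0.57 (adjusted p 0.0011 in edgeR). Filip1l, a filamin A interacting protein, fell by 1.24 (adjusted p 1.5e-06 in edgeR). Against platelet cells 6 rose and 3 fell (median 0.16 beside 0.00192).
With platelets against untreated cells Fhl2 was the one call of the 15 in edgeR (0.72, adjusted p 0.00627, list median 0.0739 beside -0.00111). In edgeR 6 of the 15 had an unadjusted p under 0.05, Filip1l lower and the others higher. DESeq2 called 5 genes of the list higher, among them Srf, at 0.37 with an adjusted p of 0.0784 in edgeR and 0.00117 in DESeq2.

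Immediate early genes of serum response factor and AP-1, a class to which Ccn1 belongs, had 11 of 17 members tested. With (A/R) platelets against untreated cells 4 rose and 2 fell (median 0.16 beside 0.00130), including Fosl1, a FOS family subunit of AP-1, at 0.88 (adjusted p 2.35e-06 in edgeR), Ier2, an early response gene, at 1.25 (adjusted p 8.53e-06) and Junb, a JUN family subunit, at 0.83 (adjusted p 0.00111). Against platelet cells 4 rose and 3 fell (median -0.13 beside 0.00192). Dusp1, a phosphatase of MAP kinases, fell by 0.73 there (adjusted p 0.00069 in edgeR). Fos, Fosb, Egr1, Egr3, Nr4a1 and Atf3 were under the filter. Fos reached at most 0.211 FPKM and Egr1 0.142 FPKM in any library. Atf3, named here after its values were seen, had 0.980 to 1.26 FPKM in (A/R) platelet libraries. It had 0.0915 to 0.112 FPKM in platelet libraries and 0.0842 to 0.191 FPKM in untreated libraries.
Between platelet and untreated cells, Fosl1 (0.38, adjusted p 0.0128 in edgeR) and Jun (0.43, adjusted p 0.0322 in edgeR) rose, 2 of the 11, with a list median of 0.35 beside -0.00111. In edgeR 7 of the 11 had an unadjusted p under 0.05, all of them higher. Jun, the JUN subunit of AP-1, had 27.0 ± 2.05 FPKM in (A/R) platelet cells, 34.8 ± 0.588 FPKM in platelet cells and 26.1 ± 1.14 FPKM in untreated cells. Like Ccn2, Jun was highest with platelets, but its mean with (A/R) platelets was not below that of untreated cells. Its call held in 8 of 18 alternatives and was lost on leaving out any platelet or untreated library or (A/R) platelet replicate 2, with an adjusted p of up to 0.138. That of Fosl1 was lost without untreated replicate 1 (0.0641 in edgeR) or untreated replicate 2 (0.051 in edgeR), so the count of 2 became 0 without either of those, 1 on leaving out untreated replicate 3, any platelet library or (A/R) platelet replicate 2, and 5 with DESeq2.

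TGF-beta signalling, for which Ccn2 is a long-known target, had 17 of 19 genes tested. Between (A/R) platelet and untreated cells 6 rose and 6 fell (median -0.0430 beside 0.00130). Tgif1, a corepressor of SMAD proteins, rose by 1.40 on the log2 scale (adjusted p 2.86e-06 in edgeR). Tgfbr2, the ligand-binding receptor, fell by 0.91 (adjusted p 1.24e-05 in edgeR), to 7.80 ± 0.627 FPKM in (A/R) platelet cells, against 15.2 ± 0.430 FPKM in untreated cells. Against platelet cells 4 rose and 7 fell (median 0.00478 beside 0.00192). Among the falls were Tgfb1, the ligand, at -0.42 (adjusted p 0.00497 in edgeR), with 9.21 ± 0.390 FPKM in (A/R) platelet cells, against 12.6 ± 0.0620 FPKM in platelet cells, and Ltbp2, a matrix protein of the latent TGF-beta binding family, at -0.69 (adjusted p 3.83e-05 in edgeR).
Against untreated cells Tgfb1 was at -0.22 with (A/R) platelets (adjusted p 0.0679 in edgeR), with an adjusted p between 0.0059 and 0.225 over the alternatives and a call without untreated replicate 3. With platelets against untreated cells 0 of the 17 were called by edgeR and limma and 1 by DESeq2, and 5 had an unadjusted p under 0.05 in edgeR (median -0.00369 beside -0.00111). Ccn2 passed in edgeR and in DESeq2. Any part of TGF-beta signalling in the Ccn2 change was not tested.

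Targets of WNT and beta-catenin, the pathway of Ccn4, were mostly under the filter, with 4 of 14 tested. Of those 4, 3 fell with (A/R) platelets against untreated cells and 0 rose (median -0.39 beside 0.00130), with 1 rise without (A/R) platelet replicate 1. Apcdd1, a membrane inhibitor of WNT signalling, fell by 1.32 on the log2 scale (adjusted p 3.16e-07 in edgeR), to 8.72 ± 0.235 FPKM in (A/R) platelet cells, against 22.6 ± 0.675 FPKM in untreated cells. Ccnd1, cyclin D1, fell by 0.31 (adjusted p 7.27e-05 in edgeR). Tcf7, a transcription factor of the pathway, was at -0.48 with an adjusted p of 0.0466 in edgeR, a call that held in 11 of 18 alternatives and was lost on leaving out (A/R) platelet replicate 1 or 2, platelet replicate 2, or untreated replicate 1 or 3, with an adjusted p of up to 0.143. Against platelet cells 2 of the 4 fell (median -0.36 beside 0.00192). Between platelet and untreated cells 0 of the 4 were called by edgeR, DESeq2 or limma, and 0 had an unadjusted p under 0.05 in edgeR (median 0.0318 beside -0.00111). Ccn4 was at -0.43 there. Any part of WNT signalling in the Ccn4 change was not tested.

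Of 21 other matricellular genes, such as thrombospondins, tenascins and fibulins, 7 were tested. With (A/R) platelets against untreated cells 1 rose and 2 fell (median -0.11 beside 0.00130). Sparc, a collagen-binding protein of bone, fell by 0.38 on the log2 scale (adjusted p 0.000224 in edgeR), to 113 ± 5.00 FPKM in (A/R) platelet cells, against 152 ± 3.81 FPKM in untreated cells. Tnxb, a tenascin, fell by 0.84 (adjusted p 2.99e-05 in edgeR), and Fbln2, a fibulin, rose by 0.62 (adjusted p 0.0107 in edgeR). Against platelet cells 1 rose and 2 fell (median -0.13 beside 0.00192). With platelets against untreated cells 0 of the 7 were called by edgeR, DESeq2 or limma, and 2 had an unadjusted p under 0.05 in edgeR (median -0.0387 beside -0.00111), Tnc, tenascin C, having the smallest at 0.25 (adjusted p 0.301).

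Likeness to a member was measured among 6316 genes, as Pearson's r of log2(FPKM + 1) over the 9 libraries. These were tested genes with a mean of at least 5 FPKM, without the CCN genes and without predicted, RIKEN, clone-named and pseudogene entries. The libraries fall into 3 groups, so r mostly reflects the order and spacing of the group means and is given without a p. The genes most like Ccn1 were Hbegf, a ligand of the EGF receptor (r 0.995), Errfi1, a feedback inhibitor of that receptor (0.988), Hmga2, a chromatin protein (0.986), Dusp5, a phosphatase of ERK (0.983), and Prkg2, a cyclic GMP-dependent kinase (0.970). Hbegf, for instance, had 23.4 ± 0.461 FPKM in (A/R) platelet cells, 20.4 ± 0.457 FPKM in platelet cells and 14.7 ± 0.320 FPKM in untreated cells.
The genes most like Ccn2 were Sgms2, a sphingomyelin synthase (r 0.976), Cxcl5, a chemokine that attracts neutrophils (0.974), Ptpn22, a tyrosine phosphatase (0.972), Mfhas1 (0.970) and Mcl1, an anti-apoptotic protein of the BCL2 family (0.966). Cxcl5 had 10.6 ± 0.600 FPKM in (A/R) platelet cells, 19.7 ± 0.609 FPKM in platelet cells and 14.3 ± 2.46 FPKM in untreated cells. All 5 had their highest mean in platelet cells and their lowest in (A/R) platelet cells. All 5 genes most like Ccn1 had their highest mean in (A/R) platelet cells and their lowest in untreated cells. Both orders come with the choice of these genes by r over the same libraries.

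**Figure D4:**
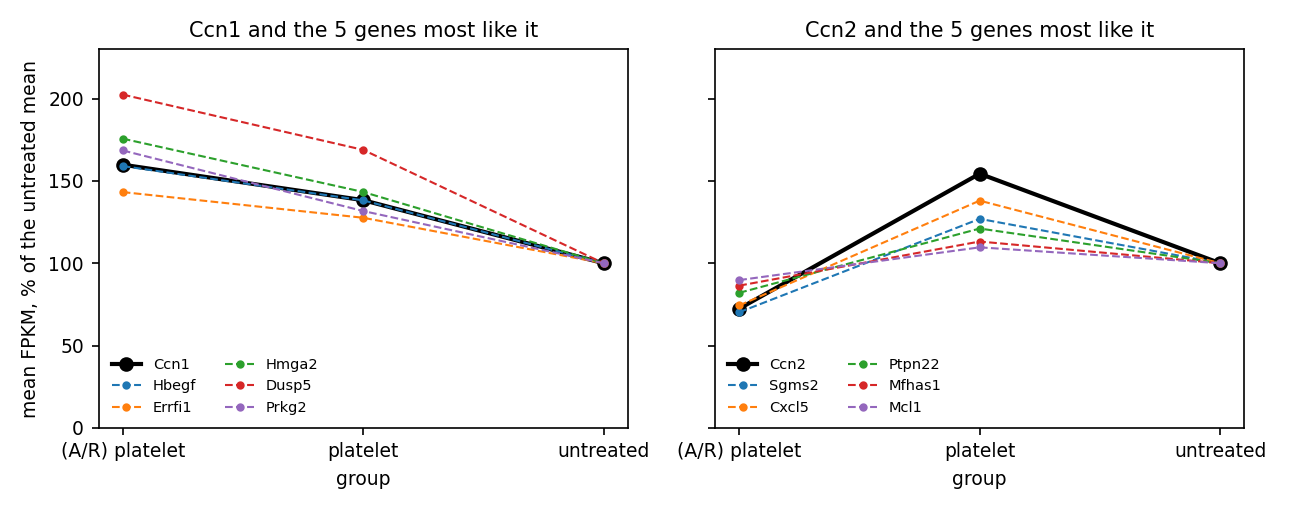
Group means of Ccn1, Ccn2 and the 5 genes most like each of them, as a percentage of each gene's mean FPKM in untreated cells, for (A/R) platelet, platelet and untreated cells. The genes were chosen by r over these libraries. Those like Ccn1 are highest in (A/R) platelet cells and those like Ccn2 are highest in platelet cells.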

How the data were processed

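One table for the whole series held a pair of columns per library, FPKM and counts, and the labels matched every column to 1 of the 9 libraries of K7M2 cells. Per the labels' protocols, an mRNA kit was used on total RNA. The genome build named is GRCm38 (mm10), as given in the submitters' processing notes. Neither the aligner nor the counter is given in the sources used here, nor is strand. The FPKM values deposited by the authors have 0.0001 in place of 0. The deposited counts are estimated counts, as far as the values show: they are whole numbers that pile up at multiples of 4, so about 4 counts stand for 1 fragment. No rounding was needed.

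Tests covered the 11826 genes that reached 1 FPKM in 3 or more libraries, holding 99.4% to 99.5% of the counts. Counts were fitted with edgeR 4.0.16 in R 4.3.3 (quasi-likelihood test, TMM scaling, 1 mean per group, all 9 libraries, no covariate), and p-values were adjusted by Benjamini-Hochberg over all tested genes. The scripts were tested on simulated data. Alternatives were DESeq2 1.42.0, limma 3.58.1 on log2(FPKM + 1) and log2(FPKM + 0.1), other size factors, other filters, the 6 libraries of a comparison alone, the replicate number as a block, counts divided by 4, and leaving out each library. Libraries of a group differed by more than sampling noise, with a chi-square per gene of 9.60 to 17.0. Intervals are 95% and come from the fit.

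The text names the 5 members, the genes Yap1, Wwtr1, Tead1, Srf, Tgfb1 and Tgfbr2, and the 5 genes most like Ccn1 and Ccn2. Of each list except the platelet, leukocyte, erythroid and osteoblast markers, up to 3 called genes are named by smallest p in a comparison. Where none was called, the gene with the smallest p is named. Members and lists were chosen with earlier results of these data known. A list gene that this rule names is not reported here.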

Additional observations from a re-analysis of the deposited data

How the results depend on the processing

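With platelets against untreated cells, the count of 31 genes became 222 with DESeq2, 18 with only the 6 libraries of the comparison, and 18 to 26 on leaving out 1 library at a time, with 18 without platelet replicate 3. Ccn4 (-0.43) passed there in DESeq2 alone. Ccn1 (0.46 to 0.53) and Ccn2 (0.58 to 0.68) kept their calls on leaving out any 1 library, with an adjusted p of at most 0.0308 in edgeR. Replicate numbers are shared by the groups, but same-numbered libraries did not deviate together (r -0.0301 to 0.0517 over 9 pairs, and 7 of 18 best matches with their own number). With the replicate number as a block, 0 genes were called by edgeR, 1337 having an unadjusted p under 0.05, and Ccn1 (0.48) and Ccn2 (0.64) had an adjusted p of 0.0534 each. Ankrd1, Fhl2, Fosl1 and Jun also missed the threshold in that fit. Between (A/R) platelet and platelet cells, limma gave 0.21 for Ccn1 with either pseudocount and -1.09 for Ccn2 on log2(FPKM + 0.1). The (A/R) counts stayed within 3839 to 4862 genes against untreated cells and 3355 to 4393 against platelet cells. Tead1 with (A/R) platelets ranged from -0.090 to 0.31 against untreated cells on leaving out 1 library, negative without (A/R) platelet replicate 3, and from -0.38 to 0.054 against platelet cells, where it was positive in the fits that left out platelet replicate 2, platelet replicate 3 and (A/R) platelet replicate 1. The cause was not tested. The difference in the Ccn1 to Ccn2 log2 ratio between platelet and untreated cells ranged from -0.23 to -0.12. Ccn5 had at most 129 counts in a library, and Ccn3 was at or under the limit that a count of 0 allows in all 9 libraries.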
